A study of Mus musculus with 10 samples.

Results

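The low-RNA wells were 121 wells of hand-picked cells from the mouse paraventricular hypothalamus (PVH) that had RNA but were not among the cells the authors kept. They were defined as wells absent from the deposited table of kept cells, outside the plate column that held controls, with at least 5000 unique molecular identifiers (UMIs, counts of tagged cDNA molecules) summed over genes. Of 960 wells on 10 plates, 706 held kept cells and 254 did not. Those 254 wells were 80 wells of the control columns, 53 wells below 5000 UMIs and the 121 low-RNA wells. The cells came from male Agrp-IRES-Cre x Ai9 offspring over 7 weeks of age, in which Cre under the Agrp locus turns on the red reporter tdTomato. All plates belonged to this group and no treatment was compared. Slices were digested with pronase in the presence of TTX, APV and DNQX, which block neuronal activity, and each picked cell was lysed, barcoded and pooled by plate with Smart-SCRB chemistry. The labels describe reporter-positive neurons, whereas the methods of the study use labelled AGRP axons to outline the PVH. Agrp itself was detected in 0 of the 121 low-RNA wells and in 9 of 619 kept cells of the same plates. A count of 0 allows a share of wells with an Agrp UMI of up to 2.48% (3 counts) and does not limit the share of cells that express it.

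The PVH holds magnocellular neurons, large cells that release oxytocin (Oxt) or vasopressin (Avp) from the posterior pituitary, and smaller parvocellular neurons that release peptides such as corticotropin-releasing hormone (Crh) and thyrotropin-releasing hormone (Trh) or project within the brain. The total RNA recovered from a single cell is known to depend on cell size and type, on how intact the cell is, and on the efficiency of lysis and reverse transcription. ERCC spike-ins are synthetic RNAs normally added to each well in equal amounts, so that their UMIs follow the reaction in the well.

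Low-RNA wells were unevenly spread over the plates. Plate JM7 held 37 of them and JM5 held 34, together 71 of the 121. JM6 held 14, AL6 12, JM8 8, AL5 5, Q6 5, Q7 3 and Q8 3, and Q5 had 0, so all comparisons below were made within these 9 plates. The low-RNA wells were 46.3% of the low-RNA and kept wells of JM7 and 41.5% of those of JM5, against 3.53% on Q8 and 3.57% on Q7. The prefixes of the plate names (Q, AL and JM) were used to group plates and AL and JM were pooled into 1 group. The labels do not say what the prefixes stand for. The labels do not tie plates to animals, so the p-values below measure the spread between plates.

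The totals of the low-RNA wells, which the definition fixed, ran from 7986 to 50113 UMIs with a median of 39165, and 104 of the 121 wells had at least 20000. Just below the lower limit, the highest total among the remaining wells was 3823, and just above the upper end, the lowest total among kept cells was 50646. The near-empty control wells (rows C, D, G and H of each control column) held at most 791 UMIs on these 9 plates. The low-RNA wells contained 866 to 4961 genes, with a median of 3550, against a median of 5206.5 in kept cells. These values describe the selection and were not tested.

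The spike-ins were lower in the low-RNA wells. The median ERCC count per plate ranged from 211 to 27540 UMIs in low-RNA wells, with a median over plates of 3750.5, and from 4410 to 31649 in kept cells, with a median of 11554. Low-RNA wells were lower on 8 of 9 plates, with a mean log2 difference of -1.42 ± 2.45 (SD, n = 9 plates), a ratio of 0.373 (exact sign-flip test, two-sided, adjusted p = 0.0141). The smallest p the test can give with 9 plates is 0.00391 before adjustment. With 1 plate left out the mean log2 difference lay between -1.62 and -0.70, the latter without Q6. The difference was largest on Q6, where the medians were 211 and 31642, and on Q7, where they were 2523 and 31649. On Q8 alone low-RNA wells had the higher median, 27540 against 24933. On the 6 AL and JM plates the ratios of medians lay between 0.691 and 0.876, and the mean log2 difference was -0.35 ± 0.15 (SD). On those 6 plates the test reached an adjusted p of 0.0703 (exact, n = 6 plates), the smallest it could give there being 0.0313 before adjustment. The number of ERCC species detected, a measure of how many spike-in molecules were captured, was 26.4 ± 6.71 in low-RNA wells and 30.1 ± 3.86 in kept cells (SD over 9 plates; exact adjusted p = 0.0352).

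**Figure D1:**
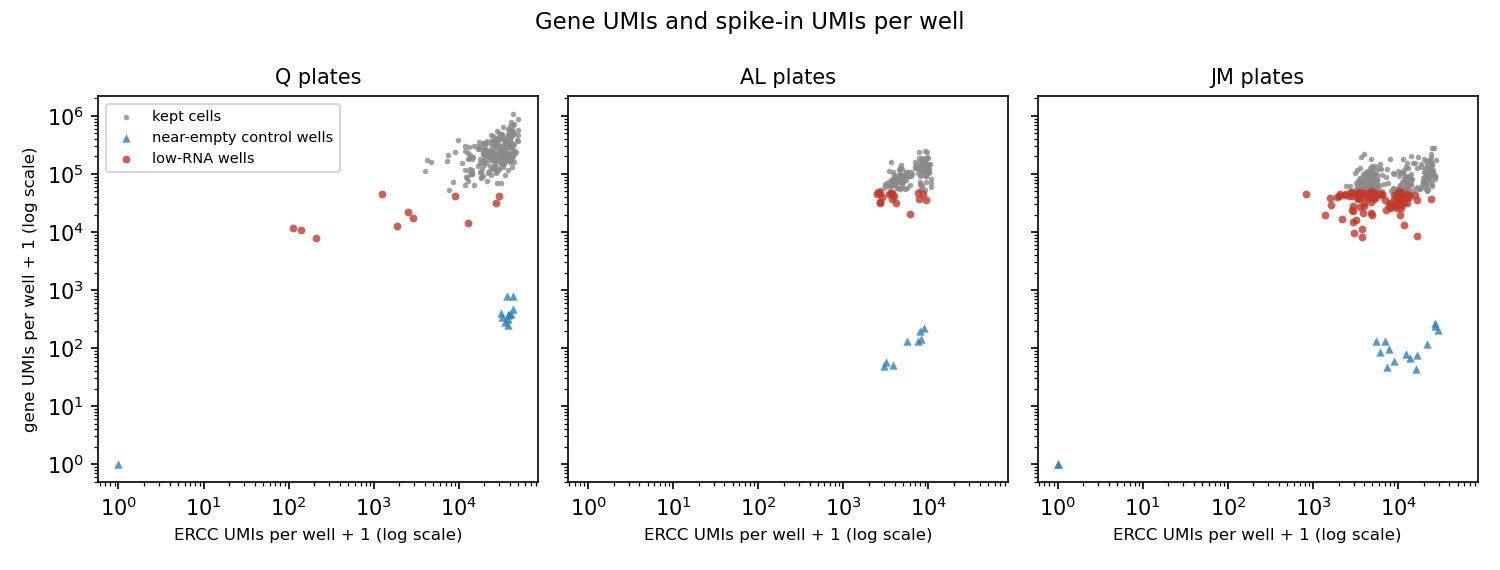
Gene UMIs (vertical, log scale) against ERCC spike-in UMIs (horizontal, log scale) of each well on the 9 plates, by plate prefix. Red points are low-RNA wells, grey points kept cells and blue triangles near-empty control wells. Low-RNA wells lie below the kept cells and above the control wells, and 3 wells of Q6 lie far to the left with 110 to 211 ERCC UMIs.

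The loss of gene UMIs exceeded the loss of spike-in UMIs on most plates. Gene UMIs per ERCC UMI, in which the total enters and which was therefore not tested, had a lower median in low-RNA wells on 8 of 9 plates. On AL5 the medians were 4.67 and 14.5, on JM7 3.58 and 6.17, and on Q8 1.45 and 7.54. Q6 was the exception, with 37.8 in low-RNA wells and 9.57 in kept cells. Of the 121 low-RNA wells, 29 had fewer ERCC UMIs than every kept cell of their plate, among them 4 of 5 on Q6, 11 of 34 on JM5 and 5 of 12 on AL6. In those wells less RNA in the cell and a poorer reaction cannot be told apart from the totals alone.

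Nearly all low-RNA wells contained neuronal transcripts. Snap25, which encodes a SNARE protein of synaptic vesicle fusion, was detected in 109 of 121 low-RNA wells (90.1%, exact 95% interval 83.3% to 94.8%) and in 611 of 619 kept cells (98.7%), and in 2 of the 36 near-empty control wells of these plates. Intervals here are Clopper-Pearson and cover counting error only. In UMIs per 1000000 UMIs (CPM) of the plate sums, the Snap25 level was 693 ± 330 in low-RNA wells and 838 ± 384 in kept cells (SD, n = 9 plates), lower on 6 of 9 plates. Stmn2, a microtubule regulator of neurons, was detected in 112 low-RNA wells, Eno2, the neuronal enolase, in 107, Syt1, the calcium sensor of vesicle release, in 86, Elavl4, a neuronal RNA-binding protein, in 82, and Rbfox3, the splicing factor known as NeuN, in 71. At least 3 of these 6 markers were present in 111 low-RNA wells (91.7%) and in 618 of 619 kept cells (99.8%), but in 1 of 36 near-empty control wells. By prefix, 106 of the 110 low-RNA wells of the AL and JM plates reached 3 markers, against 5 of the 11 on the Q plates.

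With each well thinned at random to 5000 UMIs, Snap25 was detected in 72.4% ± 20.8 of low-RNA wells and 84.6% ± 16.1 of kept cells (SD over 9 plates), lower on 7 of 9 plates (exact adjusted p = 0.0402). Without the wells that held non-neuronal markers, described next, the difference (low-RNA minus kept) was -1.59 percentage points (exact adjusted p = 0.828). On Q8, which had 3 low-RNA wells, this removed wells D12 and E12, so a single well set the value of that plate. With all its low-RNA wells Q8 had 33.3% against 52.4% in kept cells. The part of Q8 in the change was not tested.

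Of the 121 low-RNA wells, 6 (4.96%, exact 95% interval 1.84% to 10.5%) held at least 3 markers of a non-neuronal list, against 6 of 619 kept cells (0.969%). These 6 wells had 0 to 2 neuron markers. The glial markers were used by the authors to remove clusters, so such wells may have taken part in making the table of kept cells. The wells in row D and row E of column 12 of Q8 both contained markers of mural cells, the contractile cells of vessel walls. Acta2, smooth muscle actin, stood at 1815 and 1845 UMIs there, or 42911 and 57298 CPM, with Higd1b, Vtn and Pdgfrb in both. Endothelial markers were present in a well of JM5 (D10), with 101 UMIs of Cldn5, the tight junction protein of brain vessels, and in a well of Q6 (G10), with 212 UMIs of Slco1a4, a transporter of the blood-brain barrier. A well of JM8 (E08) contained 27 UMIs of Aqp4, the astrocyte water channel, 53 of Slc1a3, the glutamate transporter GLAST, and 37 of Agt. A well of JM5 (D03) contained Tmem212, Foxj1 and Ccdc153, genes of motile cilia found in ependymal cells, at 16, 3 and 1 UMIs. No low-RNA well had 3 or more markers of oligodendrocytes, their precursors, microglia, vascular leptomeningeal cells or erythrocytes, each 0 of 121. The oligodendrocyte marker Opalin and the precursor marker Pdgfra were at 0 in all low-RNA wells, and Ctss and Aif1 of microglia were each detected in 1. Of the 10 wells with fewer than 3 neuron markers, 6 were these wells and the other 4 had 1 or 2 neuron markers, 3 of them on Q6.

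**Figure D2:**
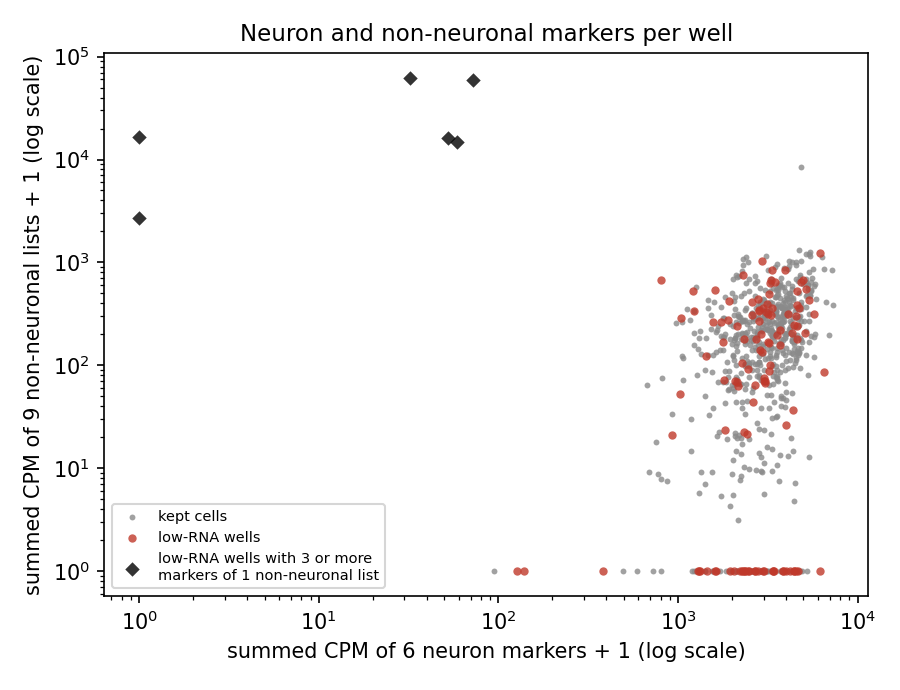
Summed CPM of the 6 neuron markers (horizontal, log scale) and of the 9 non-neuronal marker lists together (vertical, log scale) in each well. Black diamonds are the 6 low-RNA wells with at least 3 markers of 1 non-neuronal list. They sit at the upper left, apart from the other 115 low-RNA wells in red, most of which overlap the kept cells in grey.

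Neuropeptide transcripts made up a smaller part of the RNA in low-RNA wells. The 7 peptide genes Oxt, Avp, Crh, Trh, Sst, Penk and Pdyn had a plate median of 0.0832% to 1.58% of gene UMIs in low-RNA wells and 0.318% to 6.34% in kept cells. The means were 0.354% ± 0.480 and 2.40% ± 2.28 (SD, n = 9 plates), and low-RNA wells were lower on 9 of 9 plates (exact adjusted p = 0.0117). On 6 of the 9 plates the low-RNA median lay below the lowest median of kept cells on any plate. The difference was largest on AL5 (0.0881% against 6.04%) and AL6 (0.487% against 6.34%) and smallest on JM8 (0.175% against 0.318%). The difference depended on which kept cells it was set against. Against kept cells outside clusters 1 to 4, whose cells are rich in Oxt or Avp, it was 0.0488 percentage points in the other direction (exact adjusted p = 0.922). Only the kept side was filtered there, and the 18 of 121 low-RNA wells that matched clusters 1 to 4 best stayed in. A smaller difference follows from such a filter, so it is given as a description. Against kept cells below their plate's median total the difference was -0.667 points (exact adjusted p = 0.230).

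**Figure D3:**
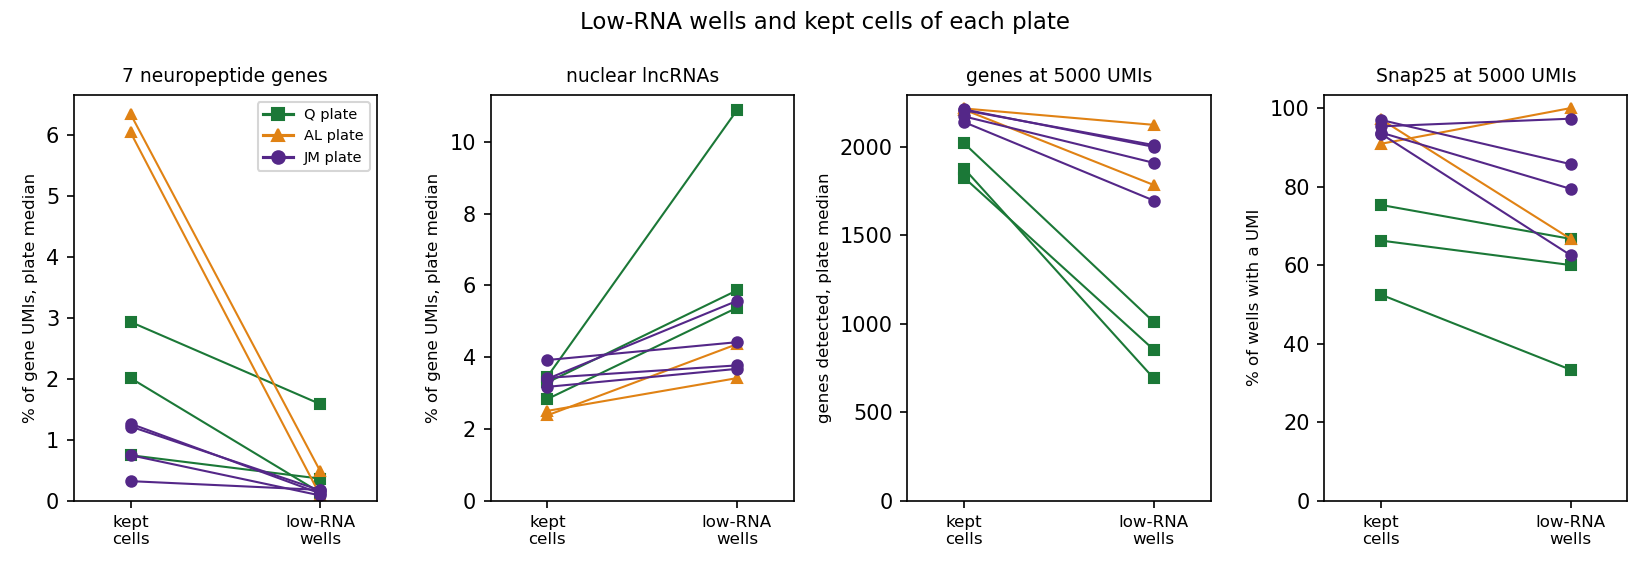
Values of each of the 9 plates in kept cells (left) and low-RNA wells (right), joined by a line, with the plate prefix given by colour and symbol. From left to right the panels give the plate medians of the neuropeptide share and nuclear lncRNA share (percent of gene UMIs), the genes detected at 5000 UMIs, and the percent of wells with Snap25 at 5000 UMIs. The neuropeptide share and the genes detected fall and the nuclear lncRNA share rises on all 9 plates, whereas Snap25 is lower in low-RNA wells on 7.

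Wells rich in oxytocin or vasopressin were present among the low-RNA wells but less common than among kept cells. Oxt made up at least 1% of gene UMIs in 14 of 121 low-RNA wells (11.6%), in 195 of 619 kept cells (31.5%) and in 51 of 307 kept cells below their plate's median total (16.6%). Its share in those 14 wells ranged from 1.11% to 27.9%, with a median of 3.48%. The highest was well A12 of Q6, with 3078 Oxt UMIs out of 11016 and 138 ERCC UMIs, followed by well G07 of AL6 with 4095 out of 46100. Avp made up at least 1% in 9 low-RNA wells (7.44%), 110 kept cells (17.8%) and 40 of the 307 (13.03%). The highest was well H08 of AL6, with 2148 Avp UMIs out of 31792 and 555 Oxt UMIs. Sst passed 1% in 1 low-RNA well and Crh, Trh, Penk and Pdyn in 0 of 121. In most other low-RNA wells Oxt and Avp were at background. Oxt did not exceed the highest near-empty control well of the same plate in 71 of 121 low-RNA wells (58.7%) and 176 of 619 kept cells (28.4%), and for Avp the numbers were 71 (58.7%) and 172 (27.8%). The near-empty control wells themselves of the 9 plates held a median of 4.5 Oxt UMIs and up to 59, so a few UMIs of these genes do not mark a cell as oxytocinergic.

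The same pattern appeared when each well was matched to the deposited clusters. The wells were thinned to 5000 UMIs and assigned to the cluster whose mean profile, computed without their own plate, correlated best over the 2000 most variable genes. Thinned kept cells returned to their own cluster in 503 of 619 cases (81.3%). The clusters were built from kept cells, so a match is not a cell type call, and no test was made. All 121 wells were assigned, also the 6 with non-neuronal markers, whose best correlations were 0.0448 to 0.108. Of these, D12 of Q8 matched cluster 2, and E12 of Q8 and D03 of JM5 matched cluster 8. G10 of Q6 and D10 of JM5 matched cluster 10, and E08 of JM8 matched cluster 15. Clusters 1 to 4, with Oxt, Avp, Tac1 and Pdyn among their leading genes, were the best match of 18 of 121 low-RNA wells (14.9%, exact 95% interval 9.06% to 22.5%), 285 of 619 kept cells (46.0%) and 84 of the 307 kept cells below their plate's median total (27.4%). The share was lower in low-RNA wells on 9 of 9 plates. On AL5 it was 0 of 5 against 49 of 77, on JM7 4 of 37 against 18 of 43 and on JM5 4 of 34 against 17 of 48, whereas Q6 had 2 of 5 against 38 of 77.

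Most low-RNA wells matched clusters 7 to 10 and 12 to 15, namely 97 of 121 (80.2%) against 307 of 619 kept cells (49.6%) and 202 of 307 (65.8%). Cluster 10, led by Crh, was the best match of 31 low-RNA wells (25.6%), 61 kept cells (9.85%) and 56 of the 307 (18.2%). Crh was detected in 22 of those 31 wells, at a mean of 1764 CPM, and in 51 of the 61 kept cells, at 1588 CPM. Kept cells of cluster 10 on all 10 plates had low totals themselves, with a median total of 0.652 of their plate's median and 59 of 62 cells below it. Cluster 15, led by Ucn3 and Trh, took 24 low-RNA wells (19.8%), 39 kept cells (6.30%) and 33 of the 307 (10.7%). Leading genes were ranked by mean level, and Ucn3 was detected in only 1 of those 24 wells and 1 of the 39 kept cells. Trh was detected in 3 of those 24 wells against 16 of the 39 kept cells. Cluster 9, led by Bdnf, the brain-derived neurotrophic factor, took 10 low-RNA wells, 9 of which had Bdnf at a mean over the 10 of 2065 CPM. Cluster 14, led by Penk, took 13, of which 10 had Reln, an extracellular guidance protein, and 3 had Penk. Clusters 6 and 11 took 3 wells each and cluster 5 none. The highest Pearson correlation with a cluster profile was lower in low-RNA wells on 8 of 9 plates. It was 0.192 ± 0.0452 against 0.243 ± 0.0130 in kept cells (SD over 9 plates, exact adjusted p = 0.0141). On AL6 the medians were 0.267 and 0.265. The clusters were built from kept cells, which favours kept cells in this comparison. Low-RNA wells also contained fewer genes at 5000 UMIs. The part of either in the lower correlation was not tested, so the value is not read as a poorer match.

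**Figure D4:**
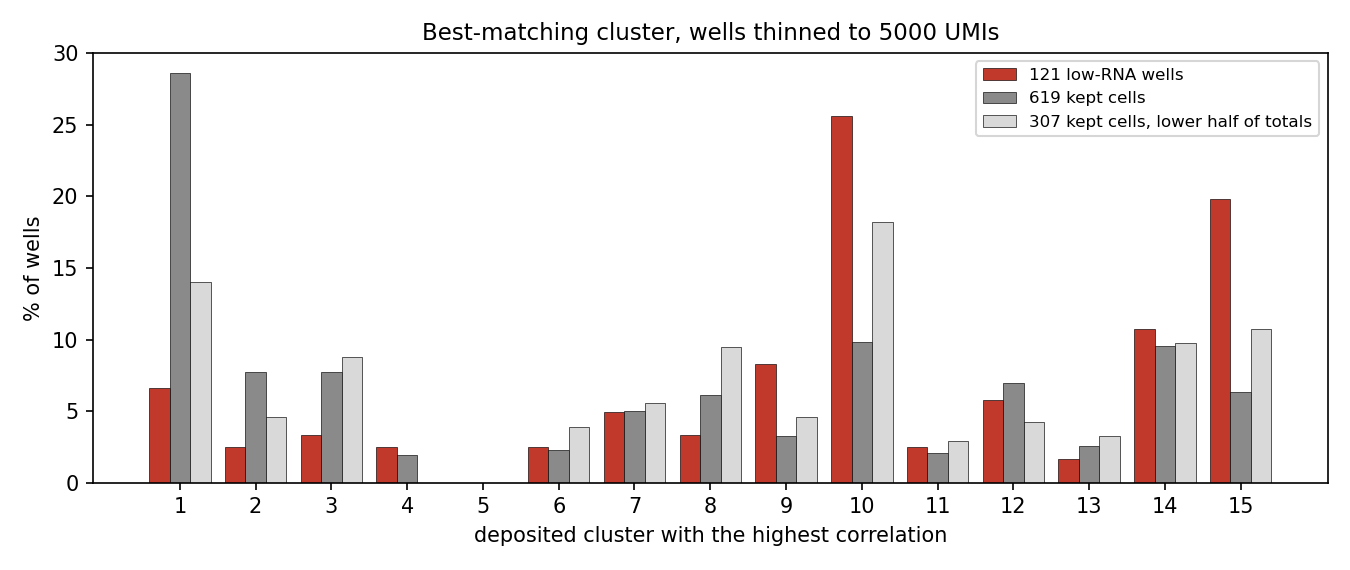
Percent of wells (vertical) by the deposited cluster (horizontal) whose mean profile correlated best with the well thinned to 5000 UMIs. Red bars are the 121 low-RNA wells, dark grey bars the 619 kept cells of the same plates and light grey bars the 307 of these below their plate's median total. Low-RNA wells are below kept cells at cluster 1 (6.61% against 28.6%) and above them at clusters 9, 10 and 15.

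Markers of transmitter and lineage were read with each well thinned to 5000 UMIs. There, Gad2, a GABA-synthesising enzyme that is also a marker of some PVH neurons, was detected in 29 of 121 low-RNA wells (23.97%), 66 of 619 kept cells (10.7%) and 49 of the 307 below their plate's median total (15.96%), and more often in low-RNA wells on 7 of 9 plates. Sim1, the transcription factor that marks PVH neurons, was detected in 11 low-RNA wells (9.09%), 140 kept cells (22.6%) and 62 of the 307 (20.2%), and less often in low-RNA wells on 8 of 9 plates. Slc17a6, the vesicular glutamate transporter of hypothalamic neurons, had nearly the same share, 38.0% and 40.5%, and Slc32a1, the vesicular GABA transporter, was found in 3 low-RNA wells and 1 kept cell. Without thinning, Gad2 was detected in 35 low-RNA wells (28.9%) and 107 kept cells (17.3%), and Sim1 in 34 (28.1%) and 349 (56.4%). In the near-empty control wells both were at 0 of 36. These shares are descriptions, without a test.

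The low-RNA wells had a larger share of UMIs on nuclear long non-coding RNAs and fewer different genes at 5000 UMIs. The nuclear long non-coding RNAs, a list of 8 genes that includes Malat1 and Meg3, took a plate median of 3.41% to 10.9% of gene UMIs in low-RNA wells and 2.38% to 3.92% in kept cells. The means were 5.26% ± 2.29 and 3.15% ± 0.495 (SD, n = 9 plates), higher in low-RNA wells on 9 of 9 plates (exact adjusted p = 0.0117). On 6 of the 9 plates the low-RNA median lay above that of kept cells on every plate. The difference was 7.43 percentage points on Q8 and 0.347 to 2.57 points on the other 8 plates. Against kept cells outside clusters 1 to 4 it was 1.91 points and against those below their plate's median total 1.82 points (exact adjusted p = 0.0176 for both). Without the 29 wells with very low ERCC it was 1.90 points (exact adjusted p = 0.105). Malat1, which stays in nuclear speckles, had a mean of 37996 CPM in the plate sums of low-RNA wells and 21682 in kept cells, higher on 9 of 9 plates. Its log2 fold change was 0.55 (edgeR adjusted p = 0.432).

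Thinned to 5000 UMIs, the low-RNA wells contained a plate median of 691 to 2125.5 genes, against 1826 to 2218 in kept cells. The means were 1565 ± 555 and 2098 ± 154 (SD, n = 9 plates), lower on 9 of 9 plates (exact adjusted p = 0.0117), and 5 of the 9 low-RNA medians lay below every kept-cell median. The difference (low-RNA minus kept) lay between -1186 and -973 genes on the Q plates and between -443.5 and -92.5 on the AL and JM plates. Equal UMIs are not equal numbers of captured molecules, since amplification differed between plates and may differ between wells, and its part in this difference was not tested.

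Mitochondrial and ribosomal transcripts did not pass the test. The mitochondrial share, which often rises in damaged cells, was 3.76% ± 1.54 in low-RNA wells and 3.15% ± 0.383 in kept cells, higher on 6 of 9 plates (exact adjusted p = 0.219). The difference was 0.603 percentage points, and 0.257 to 0.817 with 1 plate left out. Without the 29 wells with very low ERCC it was 3.59 points (exact p = 0.0313, adjusted p = 0.0703). That setting removed 4 of 5 low-RNA wells on Q6 and 2 of 3 on Q7, so a single well set the value of each of these plates. On Q6 it was well B03, whose high mitochondrial share is described under other observations, so 3.59 is not read as a shift across plates. With the 13 protein-coding mitochondrial genes alone the difference had the other sign, -0.179 points (exact adjusted p = 0.559). The transcripts of 88 cytosolic ribosomal proteins made up 3.53% ± 1.01 and 4.11% ± 0.851, lower on 8 of 9 plates (exact adjusted p = 0.0659).

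Across all genes, few differences passed the test. UMIs were summed per plate over low-RNA wells and over kept cells, and 10426 genes were tested in edgeR by quasi-likelihood, with a term for each plate. At an adjusted p under 0.05, 6 genes were lower in low-RNA wells (0.0575% of those tested) and 0 were higher (0%), while 1270 genes (12.2%) had an unadjusted p under 0.05, of which 1253 were lower and 17 higher. DESeq2 called 23 lower and 4 higher. The median log2 fold change over all tested genes was -0.74 with TMM normalization and -0.44 with RLE. Single genes are to be read against that shift, which differed between plate groups. In separate fits the median was -4.19 for the Q plates, which had 11 low-RNA wells. It was -0.31 for the AL and JM group, which had 110. The part of the Q plates in the shift of -0.74 was not tested.

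The 6 lower genes were Avp and 5 genes of low level that were lower on 9 of 9 plates, of which 4 are described here. Avp fell by 2.96 on the log2 scale (SE 0.507, edgeR adjusted p = 0.000119), with 188 to 9154 CPM in the plate sums of low-RNA wells, a median of 1795, and 3755 to 29476 in kept cells, a median of 8605. It was lower on 7 of 9 plates and higher on AL6 and JM6, where 2 wells each held most of the Avp UMIs. On AL6 these wells had 2272 and 2148 of 4517 UMIs, and on JM6 2203 and 1639 of 4090. The Avp call was lost without Q7 (adjusted p = 0.566) and without Q8 (adjusted p = 0.468). In edgeR it also missed the threshold, with the adjusted p in parentheses, under RLE normalization (0.0829), without the plate term (0.349), with wells thinned to 5000 UMIs (0.712), on the AL and JM plates alone (0.757), with the near-empty control level subtracted (0.384), without the wells with very low ERCC (0.0601) and on the Q plates alone (0.0610). Prph, which encodes the intermediate filament peripherin, fell by 4.14 (SE 0.886, edgeR adjusted p = 0.0157). Its plate sums were at 0 CPM on 6 of 9 plates in low-RNA wells and at most 60.8 CPM, whereas kept cells had 46.0 to 117 CPM. Plpp4, a lipid phosphatase, fell by 3.84 (edgeR adjusted p = 0.0161), and on JM6 the 2 values were 84.7 and 86.0 CPM. Acadl, a mitochondrial acyl-CoA dehydrogenase, fell by 5.31, and Cela1, an elastase family protease, by 4.31 (edgeR adjusted p = 0.0161 and 0.0361). Both genes were rare, with 3 and 21 UMIs in all low-RNA wells together and 1292 and 2580 in kept cells. Their low-RNA sums were at 0 on 8 and 7 of 9 plates, so they passed the filter on low counts through the kept cells and could only be called lower, and their fitted folds depend on the prior count. Prph and Plpp4 had low-RNA sums at 0 on 6 and 4 of 9 plates. They also passed that filter through the kept cells, so their calls carry the same limit. With wells thinned to 5000 UMIs none of the 4 genes passed that filter, and 0 of 3622 genes were called (208 with an unadjusted p under 0.05). These calls also depended on single plates. With each plate left out in turn, the Cela1 call was lost in 8 of 9 fits, all but the one without JM5, and it was lost with RLE normalization too (edgeR adjusted p = 0.0527). The other 3 calls were each lost in 4 of 9 fits, that of Acadl without JM5, JM6, JM7 or JM8, that of Prph without AL5, JM5, JM6 or JM8, and that of Plpp4 without AL5, JM5, JM7 or JM8. None of the 4 genes was called on the AL and JM plates alone or on the Q plates alone.

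Among kept cells, Avp and these 4 genes were all higher on average in clusters 1 to 4 than in the other clusters, given here as a description. Mean Plpp4 was 156 CPM in kept cells of clusters 1 to 4, 13.1 in the other kept cells and 13.4 in low-RNA wells. Mean Prph was 101, 33.7 and 12.5 CPM and mean Cela1 44.9, 0.635 and 7.16 CPM in the same order. Acadl differed less between the clusters, with 16.8 against 11.9 CPM, and was at 0.611 CPM in low-RNA wells. Against kept cells outside clusters 1 to 4, edgeR called 0 of 9308 genes (982 with an unadjusted p under 0.05), and Avp had a log2 fold change of 1.36 in the other direction (adjusted p = 0.467). Only the kept side was filtered in that comparison. Avp is a leading gene of clusters among those removed, so its value there cannot be read as a rise. Prph had -3.40 there (unadjusted p = 0.000415, adjusted p = 0.467). Oxt had the largest estimate among the peptides, -3.58 (SE 1.26, edgeR adjusted p = 0.365), with 90.3 to 51407 CPM in low-RNA wells and 10917 to 46474 in kept cells. It was lower on 8 of 9 plates, and on Q6, where 1 well had 3078 of the 3216 Oxt UMIs, it was higher (51407 against 41470 CPM). Without Q6 its log2 fold change was -4.18 and its adjusted p 0.000108 in edgeR. Oxt also passed without AL5 (-3.04), without JM6 (-3.02), without the wells with non-neuronal markers (-3.62), without the wells with very low ERCC (-4.76), without the filter on low counts (-3.73) and in DESeq2 (-3.26, adjusted p = 0.00526). It passed in none of the other 6 fits that leave out 1 plate.

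**Figure D5:**
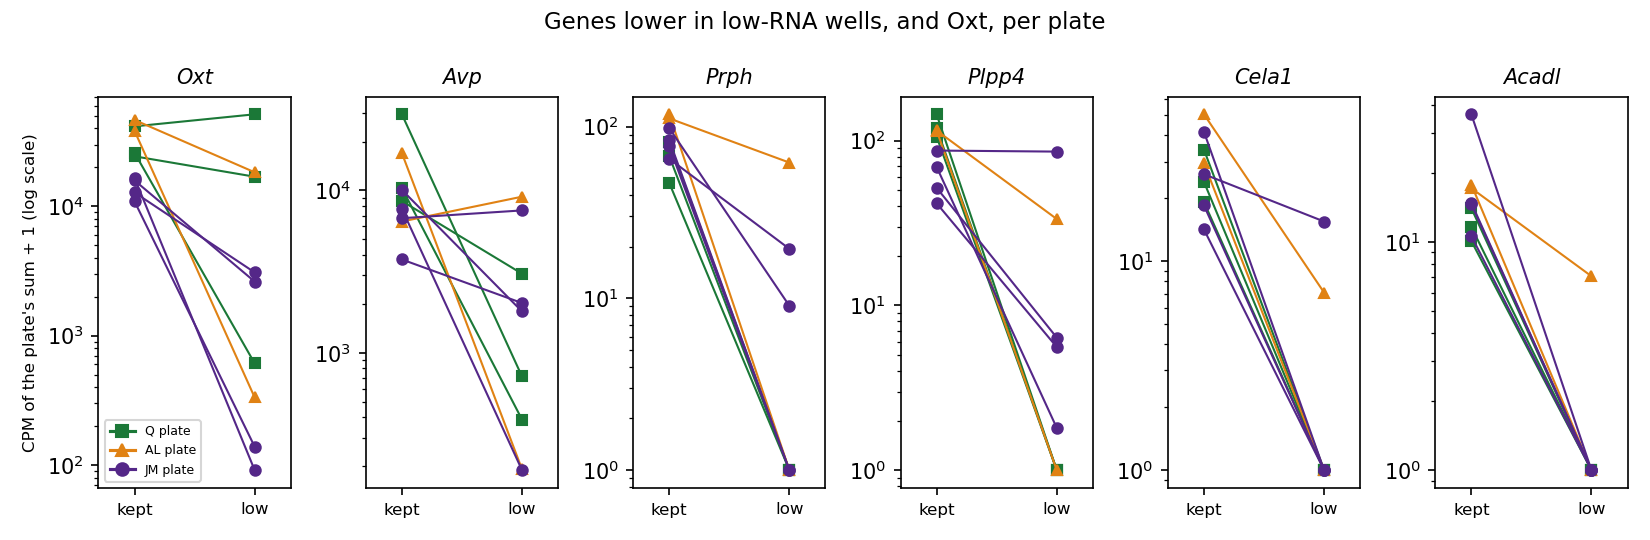
CPM + 1 (vertical, log scale, each gene on its own scale) of Oxt and of 5 of the genes that passed the test in the sums over kept cells (left) and low-RNA wells (right) of each plate, joined by a line. Prph, Plpp4, Cela1 and Acadl fall on all 9 plates, and most low-RNA sums of Prph, Cela1 and Acadl are at 0. Avp rises on AL6 and JM6, and Oxt rises on Q6.

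Of the genes in the lists, Avp was the only one that passed the test. Over all genes tested 9152 of 10426 (87.8%) had a lower estimate, and the counts of lower estimates below are to be read against that share. This share and the median of -0.74 come from the fit of all 9 plates, and the median differed between plate groups as given above. Of the 7 peptide genes 6 had a lower estimate, with a median log2 fold change of -1.45, against -0.74 over all genes tested. Pdyn, the dynorphin precursor that magnocellular vasopressin neurons also make, had -1.45 and Sst -1.87, while Crh had 0.79, with 410 CPM in low-RNA wells and 159 in kept cells (edgeR adjusted p = 0.384, 0.558 and 0.550). The 6 neuron markers had a median of -0.72, with Snap25 at -0.47 (edgeR adjusted p = 0.639) and Stmn2 at -1.36. The 12 genes of vesicle release had -0.67, with Cplx1 lowest at -1.32, the 11 of secretory granules -0.56, with Pcsk1, the prohormone convertase, lowest at -2.0, and the 9 of the cytoskeleton and axon -0.78, with the neurofilament Nefm lowest at -2.28 (edgeR adjusted p = 0.132). Of 74 tested nuclear genes of oxidative phosphorylation 73 had a lower estimate, with a median of -0.56 and Ndufa9, a complex I subunit, lowest at -1.83, and of 84 cytosolic ribosomal genes 77, with a median of -0.42 and Rpl7a lowest at -1.07. The 7 tested mitochondrial-encoded genes had a median of -0.04, with mt-Nd6 at -0.67, and the 7 nuclear lncRNAs 0.02, with Malat1 highest at 0.55 (edgeR adjusted p = 0.432). Of 10 immediate early genes, which neurons switch on after activity or stress, 8 had a higher estimate, with a median of 0.34, and Npas4 was the farthest from 0 at -1.36, while all 9 tested heat shock and stress genes had a lower one, with a median of -0.57 and Atf4 lowest at -1.30, and the 4 tested apoptosis genes a median of -1.06, with Bbc3 lowest at -1.68. Of the PVH markers, Reln had -1.33, Sim1 -1.17, Ntng1 -0.16, Npy1r 0.18 and Gad2 0.68. Most glial and vascular markers were too rare for the test. Of those tested, Aldoc of the astrocyte list had -1.08, Mbp of the oligodendrocyte list -1.38 and Col23a1 of the tanycyte list -2.46, none past the threshold. Trh had -0.57 and Penk -1.25, and Slc17a6 -0.33.

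The place of a well on the plate was described last. Low-RNA wells made up 24 of 90 low-RNA and kept wells in row A (26.7%), against 9.28% to 19.5% in the other rows, and 19 of 56 in column 1 (33.9%), against 3.28% in column 11. Row A stood out on JM7, with 8 of 11 wells, and on JM8, with 5 of 11. Low-RNA wells rarely shared a well barcode. Of 374 barcodes of 8 bases, 117 belonged to a low-RNA well on 1 plate and 2 on 2 plates. The latter are shown because a primer recurs between plates by its sequence. The first marked a low-RNA well on AL5 and JM5 and the second on 2 of the 3 plates counted. Q5, which had no low-RNA wells, was not counted for the first.
F06: caaggtca
F01: gtagttcg
The mean number of G and C bases was 4.00 in the barcodes of low-RNA wells and 4.01 in those of kept cells.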

How the data were processed

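Cells of 10 PVH plates were measured by Smart-SCRB single-cell RNA sequencing. The authors deposited raw UMI counts per gene and well (48397 genes) and per ERCC spike-in (92), and a table of the kept cells with cluster numbers. The submitters' processing notes name Trimmomatic 0.36, STAR 2.5.3a and GRCm38.p5. Any quality limit for wells is not given in the sources used here. The members, lists and tests were chosen with earlier results of these data known.

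Well values were reduced to a median (Snap25: percent of wells) per plate and kind, and 9 measures were compared over 9 plates with at least 3 low-RNA wells by exact two-sided sign-flip permutation tests with Benjamini-Hochberg adjustment (Python 3.11.15, scipy 1.17.1). Thinning drew 5000 UMIs without replacement. Sums per plate were tested with edgeR 4.0.16 (TMM, filterByExpr, robust quasi-likelihood, plate block, Benjamini-Hochberg over all genes tested; R 4.3.3), with DESeq2 1.42.0 as an alternative. Both kinds of well of a plate come from the same library, which gives the pairing. Tests were checked on simulated data. Correlations used log2(CPM + 1) of genes with at least 50 UMIs. Named genes were those the study names, up to 12 per direction among genes past the threshold and moving the same way on every plate, and the member with the largest change of each list. Meg3, markers of single wells and leading genes of clusters were named after their values were seen. Per the labels the plate is the sample, with 96 wells each. Kept cells held 50646 to 1078101 UMIs. Results for some genes are not reported here.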

Additional observations from a re-analysis of the deposited data

Results flagged for a closer look

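The nuclear lncRNA share on plate Q8 stood apart from the other plates. The difference between low-RNA wells and kept cells there was 7.43 percentage points, against 0.347 to 2.57 on the other 8 plates, and the gap to the nearest plate exceeded the limit of Dixon's test for 9 values. By chance about 1 in 20 groups passes that limit, which is not the rate of a gap of this size. Q8 had 3 low-RNA wells, with shares of 9.25%, 10.9% and 12.8%, of which the lowest and the highest were the wells with mural markers. Their part in the value was not tested.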

How the results depend on the processing

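The number of genes called lower, 6 in edgeR, was 33 without the filter on low counts (35 higher), 23 with DESeq2 (4 higher), 2 without the replicate block (1 higher), 0 with wells thinned to 5000 UMIs, 1 against kept cells below their plate's median total, 0 on the Q plates alone, 1 on the AL and JM plates alone (3 higher), and 2 to 8 when 1 plate was left out. Without the block, 2 of the 6 genes, among them Acadl, remained among the calls. On the AL and JM plates alone 0 of the 6 did. The edgeR adjusted p there was 0.172 for Prph, 0.247 for Plpp4, 0.247 for Acadl and 0.344 for Cela1. Alternatives chosen after seeing the data gave 10 lower genes without the wells with non-neuronal markers and 34 without the wells with fewer ERCC UMIs than every kept cell. They gave 0 against kept cells outside clusters 1 to 4, where Avp had 1.36 and the low-RNA wells were not filtered. Subtracting the mean of all control-column wells was not run, since rows A, B, E and F of those columns held RNA, and subtracting the near-empty rows gave 5 lower genes, Avp being the one lost.

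On the Q plates alone (3 plates, smallest exact p 0.25) the differences were -3.58 for log2 ERCC UMIs, -9 for ERCC species, 4.18 and -1.20 percentage points for the nuclear lncRNA and neuropeptide shares, -1056 genes at 5000 UMIs, -11.3 points for Snap25 and -0.0910 for the best correlation. On the AL and JM plates alone they were -0.35, -1, 1.07, -2.47, -272, -12.7 and -0.0314, with exact adjusted p from 0.0703 to 0.241. Each kept its direction. Against kept cells below their plate's median total, ERCC species differed by -3.11, the neuropeptide share by -0.667 and Snap25 by -7.95, none past the threshold. Against kept cells outside clusters 1 to 4, with the low-RNA wells unfiltered, they differed by -3.39, 0.0488 and -10.8. Without the wells of very low ERCC, ERCC species differed by -1.94, the nuclear lncRNA share by 1.90, the neuropeptide share by -1.61 and Snap25 by -19.1, again not past it. That setting removed 4 of 5 low-RNA wells on Q6 and 2 of 3 on Q7. Snap25 also missed the threshold without the wells with non-neuronal markers (-1.59), where Q8 kept a single low-RNA well, and with at least 3 UMIs as detection (-3.06). With means over wells the mitochondrial share passed at 1.23 points. With 1 plate left out, ERCC species ranged from -4.25 to -2.25, Snap25 from -14.9 to -9.87 and the ribosomal share from -0.729 to -0.330, which passed without JM8. The cause of these changes was not tested. The near-empty control wells set the depth below which Oxt and Avp cannot be read.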

Other observations

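Among the low-RNA wells, 2 on the Q plates had a high mitochondrial share made of different transcripts. Well E03 of Q7 had 16.5% of its UMIs on mitochondrial genes, of which the protein-coding genes were 0.930%, with 45 UMIs of Snap25 and 1781 of Oxt. Well B03 of Q6 had 19.0%, of which 15.2% were on protein-coding mitochondrial genes, together with 8.88% on ribosomal protein genes, 1 neuron marker and 0 UMIs of Snap25. The mitochondrial genes that do not encode proteins are ribosomal and transfer RNAs.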
